A study of Mus musculus with 11 samples.

Results

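The smooth muscle and contractile genes Acta2, Synpo2, Cspg4, Smtn, Mylk, Myl9, Tagln, Cnn1, Tpm1 and Tpm2 were examined in CD34+ and CD34- keratinocyte fractions of mouse back skin. Every probe set whose platform annotation gives 1 of these 10 symbols and no other was taken, which gave 24 of the 45101 probe sets in the table. The CD34+ fraction was measured on 5 arrays and the CD34- fraction on 6. All cells came from K5-myrAkt(L84) mice, in which a keratin 5 promoter, active in basal keratinocytes and the outer root sheath, drives an activated form of the kinase Akt. Keratinocytes were bound by an antibody against CD34, a surface protein of bulge stem cells of the hair follicle, and recovered with magnetic beads. Follicle stem cells are named in the cell type label of both fractions, while the design text uses that name for the CD34+ fraction alone. Both fractions carry the transgene, so nothing here is a comparison with skin lacking activated Akt. Age and hair cycle stage are not in the labels, nor is it stated whether each array is a mouse of its own, and a p-value therefore reflects array-to-array spread that may be technical.

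Smooth muscle contracts when calcium and calmodulin activate myosin light chain kinase, which phosphorylates the regulatory light chain of myosin and lets it pull on actin filaments. Tropomyosin, calponin and transgelin lie along or cross-link those filaments, and their genes are classic targets of the serum response factor SRF, which binds a DNA element called the CArG box. In skin these genes are known from the arrector pili muscle, which attaches to the bulge, from the dermal sheath around the follicle and from pericytes of vessels. Several of them also serve actin and myosin in cells that are not muscle, keratinocytes included.

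The promoter windows of Acta2 and Myl9 are shown because they hold the CArG letters of the gene set. They are RefSeq sequences of the GRCm38.p6 build, with 250 bases before and 50 bases after the start site, on the strand of the gene. Capitals mark CArG boxes, which are CC, then 6 bases that are each A or T, then GG, and also the same element with 1 of its 6 inner bases C or G.
Acta2, chr19:34255324-34255623, minus strand: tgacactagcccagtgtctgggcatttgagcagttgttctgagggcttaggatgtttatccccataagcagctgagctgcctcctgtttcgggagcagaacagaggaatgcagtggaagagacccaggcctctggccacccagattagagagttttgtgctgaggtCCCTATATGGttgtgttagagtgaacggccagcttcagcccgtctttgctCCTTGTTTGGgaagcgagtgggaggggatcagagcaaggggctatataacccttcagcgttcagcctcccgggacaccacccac
Myl9, chr2:156775214-156775513, plus strand: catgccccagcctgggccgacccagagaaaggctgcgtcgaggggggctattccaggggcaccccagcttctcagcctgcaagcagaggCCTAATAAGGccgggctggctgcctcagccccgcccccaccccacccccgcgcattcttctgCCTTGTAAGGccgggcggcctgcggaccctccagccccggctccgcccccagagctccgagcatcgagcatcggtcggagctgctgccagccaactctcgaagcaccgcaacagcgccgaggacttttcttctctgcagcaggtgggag
A window was found for 9 of the 10 genes, Tagln not among them. A CArG box, which reads the same on both strands, stood in 1 of the 9 windows, that of Myl9, at 161 bases before the start site. It stood in 1.63% of all 32851 windows of this length. The form with 1 inner C or G was found in Acta2, at 84 and 34 bases before the start site, and in Myl9, at 99, and in 8.50% of all windows. The letters CATTCC, searched on both strands, were found in Acta2, Smtn, Mylk and Tpm1, and in 14.7% of all windows. They are part of the longer M-CAT element, CATTCCT, which was not searched as a whole. These matches describe the letters of the windows, and binding was not measured.

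Contractile genes were mostly higher in CD34+ cells, and none was called lower. Of the 24 probe sets, 14 passed a brightness filter that left out the dimmest 40% of probe sets by mean signal, and they stand for 8 of the 10 genes. Of those 14, 7 were higher in CD34+ cells and 0 lower at a limma adjusted p under 0.05, and the other 7 were not called. At an unadjusted p under 0.05 the counts were 10 higher and 0 lower. Over all 20967 tested probe sets, 11.0% were called higher and 9.77% lower. Since a probe set could pass the filter through high CD34+ values alone, all 24 were also fitted without a filter: 9 were called higher and 0 lower, against 6.55% called higher over all probe sets with 1 symbol. The median log2 difference of the 24 probe sets was 0.87, against 0.21 for all probe sets with 1 symbol. All 5 CD34+ arrays lay above all 6 CD34- arrays for 5 of the 24 probe sets, against 5.53% of all probe sets with 1 symbol. These were 3 of Synpo2, 1 of Mylk and that of Myl9.

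**Figure D1:**
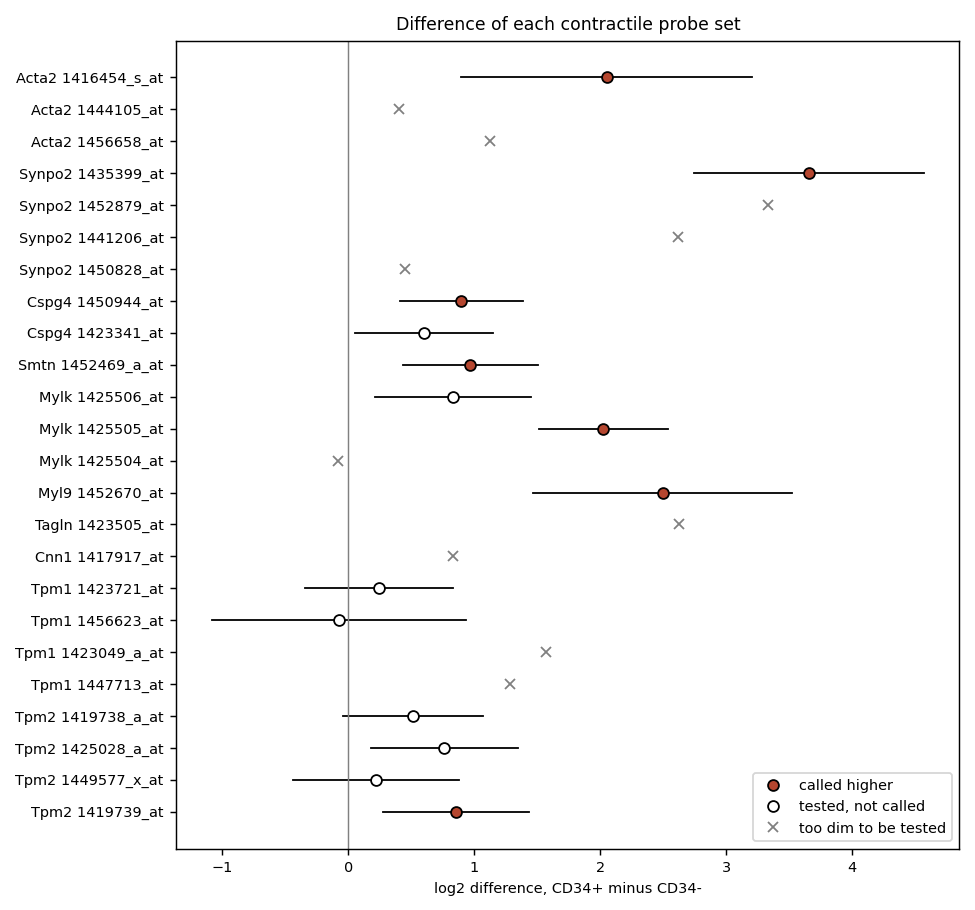
Log2 difference, CD34+ minus CD34-, of each of the 24 contractile probe sets. Lines are unadjusted 95% intervals from limma, filled circles were called higher, open circles were tested and not called, and crosses were too dim to be tested. Synpo2 1435399_at lies farthest to the right at 3.66, and the Tpm1 circles lie near 0.

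The arrays of the CD34+ fraction differed from those of the CD34- fraction in more than the sorted cells. The actin 3-prime to 5-prime ratio, a log2 difference between control probe sets that rises as RNA or its labelled copies become shorter, was 2.91 to 5.25 on CD34+ arrays and 2.19 to 2.76 on CD34- arrays, with no overlap. It was highest on CD34+ arrays 1 and 2, at 5.25 and 4.56. The matching Gapdh ratio was 2.96 to 3.69 on CD34+ arrays and 3.00 to 3.43 on CD34- arrays. Median log2 signal was 6.71 to 7.23 on CD34+ arrays and 6.35 to 6.51 on CD34- arrays. The sort marker Cd34 itself was at 10.54 to 12.92 on CD34+ arrays and 2.00 to 5.50 on CD34- arrays, below the 40th percentile of every CD34- array, the level taken here as the limit of dim signal, and at least 68.7-fold higher in CD34+ cells against those percentiles. With the actin ratio, which does not overlap between the fractions, as a covariate, 0.591% of all tested probe sets were called higher and 1 of the 14 contractile probe sets, Mylk 1425505_at.

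Synpo2 encodes synaptopodin 2, also called myopodin, an actin-bundling protein of smooth and striated muscle. Its brightest probe set, 1435399_at, showed the largest difference among the contractile probe sets. On CD34+ arrays 1 to 5 its log2 signal was 12.01, 9.30, 9.30, 10.36 and 10.14, and on CD34- arrays the lowest, median and highest were 5.76, 6.64 and 7.35. Every CD34+ array lay above every CD34- array, and CD34+ array 1 was the highest. The means were 10.22 ± 1.11 (SD, n = 5) in CD34+ cells and 6.56 ± 0.56 (SD, n = 6) in CD34- cells. The difference was 3.66 (SE 0.43, limma adjusted p = 0.000123), or 12.6-fold. The call was kept in each fit without 1 array.

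Among the dimmer Synpo2 probe sets, 1452879_at and 1441206_at likewise had no overlap between the fractions. For 1452879_at the CD34+ arrays lay at 6.25 to 7.70 and the CD34- arrays at 1.46 to 5.03. For 1441206_at they lay at 5.69 to 7.31 and at 2.04 to 4.74. On all 6 CD34- arrays both were under the 40th percentile of the array, so that a fold change is a lower bound, of at least 2.31-fold and 1.55-fold. Without the brightness filter both were called (limma adjusted p = 0.00291 and 0.00965). The last, 1450828_at, was dim on every array, with a mean of 4.82 ± 0.51 (SD, n = 5) in CD34+ cells and 4.38 ± 0.86 (SD, n = 6) in CD34- cells.

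Mylk encodes myosin light chain kinase, and Myl9 a regulatory light chain that this kinase phosphorylates. The Mylk probe set 1425505_at read 8.59, 8.53, 7.67, 8.30 and 8.08 on CD34+ arrays 1 to 5, and 5.94, 6.09 and 6.72 as the lowest, median and highest of the CD34- arrays. The fractions were well apart, and the spread within each was small, at 8.23 ± 0.37 (SD, n = 5) in CD34+ cells and 6.21 ± 0.30 (SD, n = 6) in CD34- cells. The difference was 2.02 (SE 0.24, limma adjusted p = 0.000134), or 4.07-fold. It was called under each of the 25 alternatives in which it was tested, the actin ratio as a covariate included (difference 1.82, limma adjusted p = 0.0454).

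The other Mylk probe sets, which the platform derives from the same transcript sequence, did not all behave like it. The brightest, 1425506_at, read 11.02, 9.11, 9.49, 10.07 and 10.05 on CD34+ arrays 1 to 5, against 8.59, 9.11 and 9.72 as lowest, median and highest on CD34- arrays. CD34+ arrays 2 and 3 lay within the CD34- range. The difference was 0.83 (SE 0.29, limma adjusted p = 0.0549, unadjusted 95% interval 0.21 to 1.45). The dim 1425504_at averaged 4.98 ± 1.16 (SD, n = 5) in CD34+ cells and 5.06 ± 1.35 (SD, n = 6) in CD34- cells. Which of the kinase's transcripts each probe set measures was not tested.

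Myl9 had 1 probe set, 1452670_at. Its log2 signal was 9.88, 7.85, 6.30, 8.11 and 8.28 on CD34+ arrays 1 to 5, and 4.89, 5.60 and 6.29 were the lowest, median and highest values on CD34- arrays. The fractions did not overlap, but CD34+ array 3 lay only just above the highest CD34- array. The means were 8.08 ± 1.27 (SD, n = 5) in CD34+ cells and 5.59 ± 0.45 (SD, n = 6) in CD34- cells. The difference was 2.50 (SE 0.48, limma adjusted p = 0.00349). On 4 of 6 CD34- arrays the value was under the 40th percentile, and with such values raised to it the difference was 2.24.

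Acta2 encodes smooth muscle alpha actin, the actin of contractile filaments in smooth muscle and myofibroblasts. Its probe set 1416454_s_at, whose suffix marks probes that can match more than 1 transcript, read 10.78, 11.79, 8.24, 11.10 and 8.52 on CD34+ arrays 1 to 5. The lowest, median and highest on CD34- arrays were 7.55, 8.01 and 8.47. CD34+ arrays 1, 2 and 4 were far above every CD34- array, CD34+ array 5 was barely above, and CD34+ array 3 lay within the CD34- range. The mean was 10.09 ± 1.60 (SD, n = 5) in CD34+ cells and 8.04 ± 0.38 (SD, n = 6) in CD34- cells, a difference of 2.05 (SE 0.54, limma adjusted p = 0.0177). Without CD34+ arrays 1 and 2 it was 1.25, and the call was lost (limma adjusted p = 0.105). The other Acta2 probe sets, 1444105_at and 1456658_at, were dim throughout, under the 40th percentile of each of the 11 arrays.

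Tagln, which encodes transgelin or SM22 alpha, an early marker of smooth muscle, had the same high arrays as Acta2. Its single probe set, 1423505_at, read 6.19, 8.90, 4.65, 6.97 and 4.45 on CD34+ arrays 1 to 5, and 2.27, 3.15 and 5.36 as lowest, median and highest on CD34- arrays. CD34+ arrays 1, 2 and 4 again lay above every CD34- array, and CD34+ arrays 3 and 5 lay within the CD34- range. It was under the 40th percentile on all 6 CD34- arrays and on 3 of 5 CD34+ arrays, and no fold is given. Without the filter Tagln was called at the edge of the threshold (difference 2.63, limma adjusted p = 0.0490). Cnn1, which encodes calponin of smooth muscle, was under the 40th percentile on all 11 arrays. It read 4.49, 5.53, 1.59, 2.39 and 4.04 on CD34+ arrays 1 to 5, while the CD34- arrays spanned 1.16 to 3.86, and no fold is given.

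**Figure D2:**
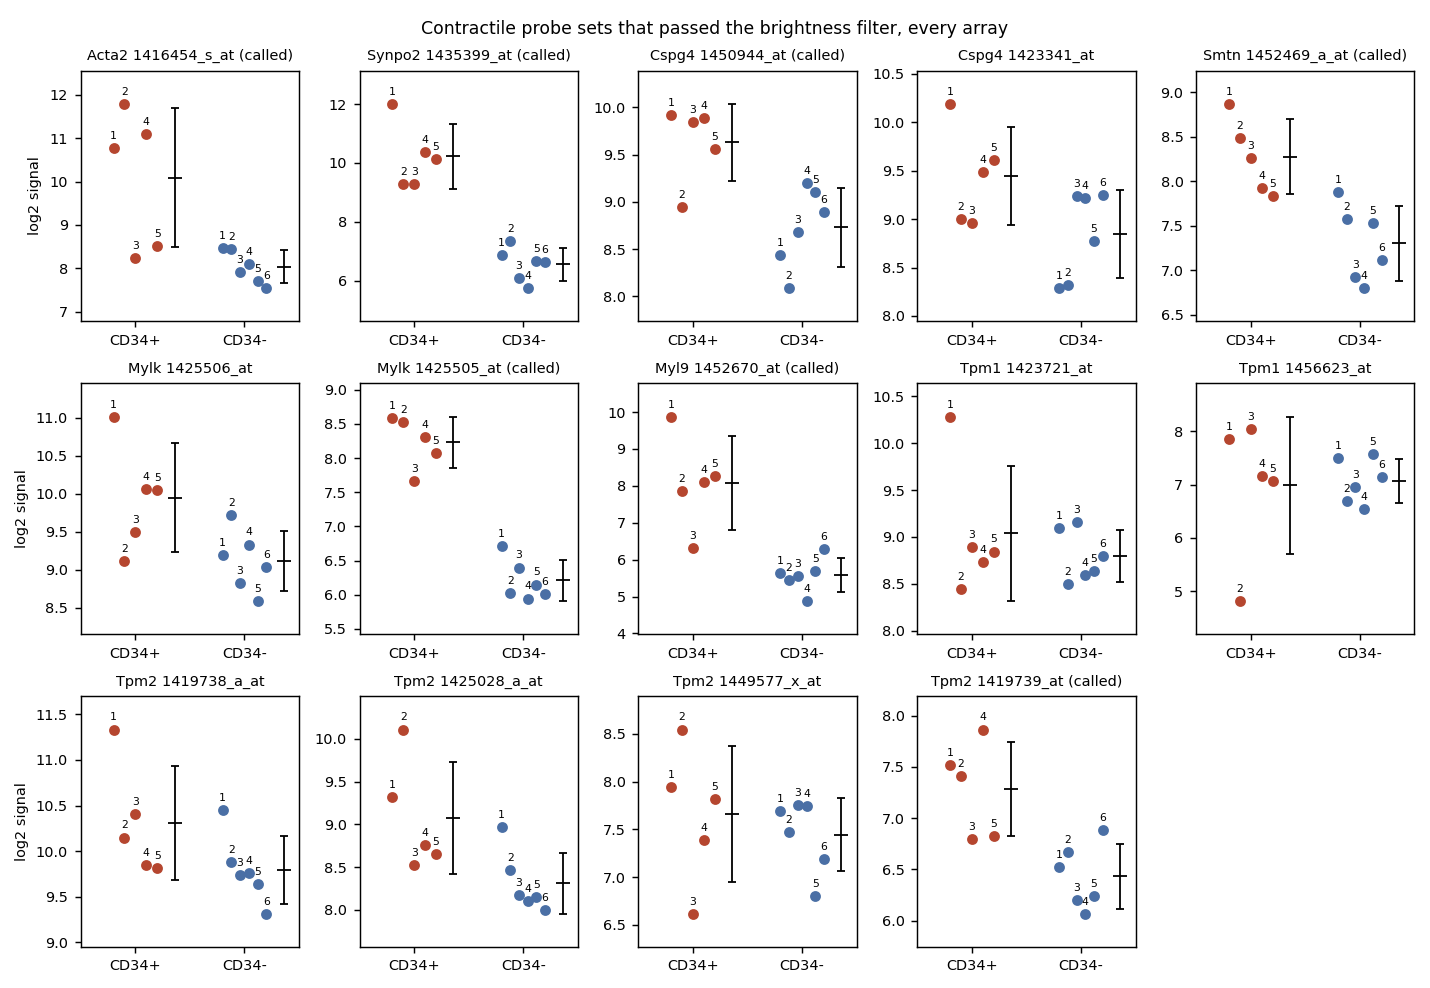
Log2 signal of each of the 14 probe sets that passed the filter, with every array as a numbered point, CD34+ left and CD34- right. Bars are mean and SD (n = 5 and n = 6), and the vertical axis differs between panels and does not start at 0. For Acta2 the CD34+ arrays 3 and 5 lie at 8.24 and 8.52, beside the CD34- arrays, whereas for Synpo2 and Mylk 1425505_at the fractions are apart.

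Smtn encodes smoothelin, an actin-associated protein of contractile smooth muscle. Its probe set 1452469_a_at read 8.87, 8.48, 8.25, 7.92 and 7.83 on CD34+ arrays 1 to 5, against 6.80, 7.32 and 7.88 as lowest, median and highest on CD34- arrays. Only CD34+ array 5 lay within the CD34- range. The means were 8.27 ± 0.42 (SD, n = 5) in CD34+ cells and 7.30 ± 0.42 (SD, n = 6) in CD34- cells. The difference was 0.97 (SE 0.25, limma adjusted p = 0.0164). It was 0.71 after quantile normalization and 0.70 without CD34+ arrays 1 and 2, with the call lost in each (limma adjusted p = 0.0591 and 0.0845).

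Cspg4 encodes the NG2 proteoglycan, a surface protein of pericytes, smooth muscle and glial precursors that is also made by some epidermal and melanocytic cells. Probe set 1450944_at read 9.92, 8.95, 9.84, 9.89 and 9.55 on CD34+ arrays 1 to 5, against 8.09, 8.79 and 9.20 on CD34- arrays as lowest, median and highest. CD34+ array 2 lay within the CD34- range and the others above it. The difference was 0.90 (SE 0.23, limma adjusted p = 0.0153), and it was 1.03 without CD34+ arrays 1 and 2. The second, 1423341_at, averaged 9.45 ± 0.50 (SD, n = 5) in CD34+ cells and 8.85 ± 0.46 (SD, n = 6) in CD34- cells, a difference of 0.60 that was not called (SE 0.26, limma adjusted p = 0.105). Equal medians moved the 2 differences to 0.42 and 0.12, neither of them called.

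The tropomyosin genes Tpm1 and Tpm2, which encode coiled-coil proteins that lie along actin filaments in muscle and in other cells, gave small differences on most of their tested probe sets. The brightest Tpm1 probe set, 1423721_at, read 10.28 on CD34+ array 1 and 8.44 to 8.89 on the other CD34+ arrays, against 8.50 to 9.16 on CD34- arrays. Apart from CD34+ array 1 the fractions overlapped. The difference was 0.24 (SE 0.27, limma adjusted p = 0.552, unadjusted 95% interval -0.35 to 0.83), and it was -0.07 without CD34+ array 1. For 1456623_at CD34+ array 2 stood low at 4.82, the other CD34+ arrays lay at 7.08 to 8.04, and CD34- arrays lay at 6.55 to 7.57. Its difference was -0.08 (SE 0.47, limma adjusted p = 0.925, unadjusted 95% interval -1.08 to 0.93).

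Another Tpm1 probe set, 1423049_a_at, did not pass the filter but held the sharpest split between CD34+ arrays. It read 4.32, 9.15, 3.64, 9.08 and 3.73 on CD34+ arrays 1 to 5, and 3.05, 3.70 and 6.36 as lowest, median and highest on CD34- arrays. CD34+ arrays 2 and 4 were far above every other array, and CD34+ arrays 1, 3 and 5 lay within the CD34- range. The last, 1447713_at, was under the 40th percentile on all 11 arrays.

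Of 4 Tpm2 probe sets, all of which passed the filter, 1 was called. This was 1419739_at, the dimmest, at 7.52, 7.41, 6.80, 7.87 and 6.83 on CD34+ arrays 1 to 5, against 6.07, 6.38 and 6.88 as lowest, median and highest on CD34- arrays. CD34+ arrays 3 and 5 lay within the CD34- range. The difference was 0.85 (SE 0.27, limma adjusted p = 0.0392), and the call was lost in 8 of 11 fits without 1 array (highest limma adjusted p = 0.0924). The brightest, 1419738_a_at, averaged 10.31 ± 0.62 (SD, n = 5) in CD34+ cells and 9.80 ± 0.37 (SD, n = 6) in CD34- cells, a difference of 0.51 that was not called (limma adjusted p = 0.168, unadjusted 95% interval -0.04 to 1.07). Differences of 0.76 for 1425028_a_at and 0.22 for 1449577_x_at were not called either (limma adjusted p = 0.0600 and 0.638).

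Across the CD34+ arrays the contractile probe sets thus varied in more than 1 way. Acta2 1416454_s_at, Tagln and Tpm1 1423049_a_at were highest on CD34+ arrays 2 and 4. Synpo2 1435399_at, Mylk 1425506_at and Myl9 were highest on CD34+ array 1, and Tpm1 1423721_at and Tpm2 1419738_a_at also had their highest value there. Within this fraction the actin ratio was highest on CD34+ array 1, at 5.25, and next on CD34+ array 2, at 4.56. It was lowest on CD34+ array 4, at 2.91, and CD34+ arrays 2 and 4 were both high for Acta2. The part of the actin ratio in these patterns was not tested. Cnn3, a calponin of many cell types named after its values were seen, was highest on CD34+ arrays 2 and 4 on its brightest probe set. This read 11.53, 13.36, 10.59, 13.31 and 10.36 on CD34+ arrays 1 to 5, with no CD34- array above 10.28 (difference 2.12, SE 0.51, limma adjusted p = 0.0109). Of the other 5 Cnn3 probe sets 1 was called higher and 4 were not called, and all 5 were highest on CD34+ array 1. These likenesses rest on 5 arrays and are a description.

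**Figure D3:**
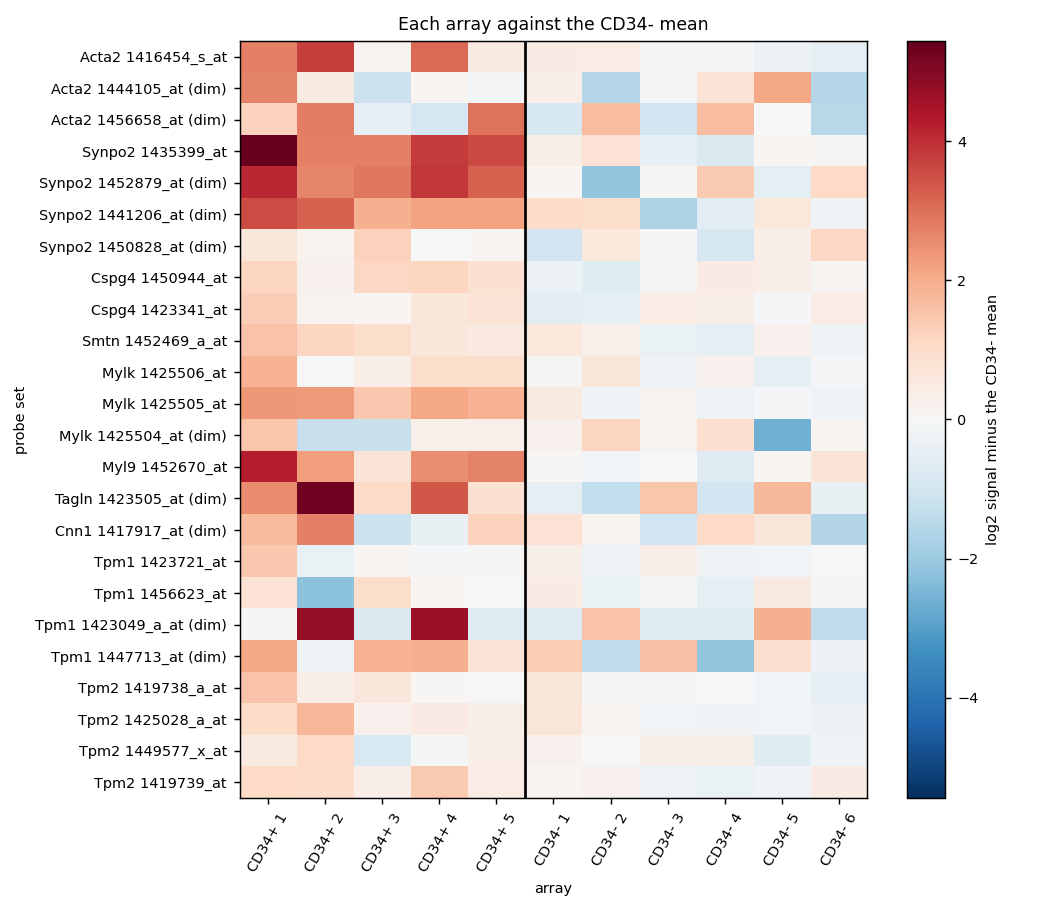
Log2 signal of the 24 contractile probe sets (rows) on each array (columns, CD34+ left of CD34-), minus the mean of the CD34- arrays, on a colour scale from blue (lower) to red (higher). Rows marked dim did not pass the brightness filter. Acta2 1416454_s_at, Tagln and Tpm1 1423049_a_at are deepest red on CD34+ arrays 2 and 4, and Synpo2 1435399_at on CD34+ array 1.

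Of 5 genes that define differentiated smooth muscle, none passed the brightness filter. Myh11, the smooth muscle myosin heavy chain, lay at 4.25 to 5.99 on CD34+ arrays and 2.64 to 4.91 on CD34- arrays, under the 40th percentile on all 11. Lmod1, an actin nucleator of smooth muscle, lay at 3.24 to 5.28 and 1.84 to 5.40, and Myocd, the SRF cofactor of smooth muscle, at 2.22 to 5.58 and 2.51 to 5.50, both under that percentile on all 11 as well. Actg2, an actin of visceral smooth muscle, lay at 3.29 to 5.90 on CD34+ arrays and 1.18 to 5.88 on CD34- arrays. Des, the intermediate filament protein desmin, lay at 5.58 to 7.22 on CD34+ arrays and 3.81 to 6.53 on CD34- arrays, under the 40th percentile on 2 of 5 and 3 of 6 arrays. Of 15 further smooth muscle differentiation genes on the array, these included, 7 passed the filter and none was called by limma in either direction, with a median difference of 0.43 against 0.02 for all tested genes, each by its brightest probe set. That median was 0.13 after quantile normalization and -0.05 with equal medians. At an unadjusted p under 0.05 the count was 1 of 7, Ldb3 (0.90), a gene of the Z-disc named after its values were seen. The summed linear signal of the 15 genes was 1930 to 3210 on CD34+ arrays and 1790 to 2210 on CD34- arrays. Npnt, the brightest of them and named after its values were seen, weighs most in this sum. Its log2 signal was 9.33 to 10.91 on CD34+ arrays and 9.78 to 10.23 on CD34- arrays, and it was not called (0.20). No detection calls were used, so a low value is dim and not absent, and in sorted bulk RNA fewer cells of a type and less RNA per cell cannot be told apart.

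Of 25 genes of the actin cytoskeleton, all tested, 7 rose and 1 fell in CD34+ cells, where 11.6% of all tested genes rose and 10.5% fell. Those that rose with the smallest p were Cald1, which encodes the actin and myosin binder caldesmon (2.44, SE 0.41, limma adjusted p = 0.00166), Palld, which encodes the actin scaffold palladin (1.33, SE 0.23), and Pdlim7 (1.61, SE 0.29), none of which overlapped between the fractions. Both other Cald1 probe sets that passed the filter were called higher, as were 2 of the 3 others of Palld, while the other of Pdlim7 was not called. Csrp1, a LIM protein of smooth muscle and actin bundles, fell (-0.97, SE 0.28, limma adjusted p = 0.0274), but this call was lost in 5 of 11 fits without 1 array (highest limma adjusted p = 0.0578), and its other probe set was not called. The median of this list was 0.15 and turned to -0.02 after quantile normalization. With equal medians, 6 rose and 8 fell, where 3.22% of all tested probe sets were called higher and 39.4% lower.

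Of 17 tested genes of non-muscle myosin and its regulators, 3 rose and 1 fell, where 11.6% of all tested genes rose and 10.5% fell. With equal medians 1 rose and 7 fell, where 3.22% of all tested probe sets were called higher and 39.4% lower. After quantile normalization 2 rose and 0 fell, where these shares were 6.61% and 10.5%. The small GTPase gene Rhoc rose by 1.91 (SE 0.28, limma adjusted p = 0.00065) with no overlap between the fractions. The myosin heavy chain gene Myh9 rose by 0.93 on its brightest probe set (SE 0.24, limma adjusted p = 0.0168), but of its other 4 probe sets 1 was called lower and 3 were not called. The light chain gene Myl12a rose by 0.46 (SE 0.15, limma adjusted p = 0.0447), a difference of -0.02 with equal medians, and its other probe set was not called. Ppp1r12a, the targeting subunit of the phosphatase that opposes the kinase, fell by 0.36 on the log2 scale (SE 0.11, limma adjusted p = 0.0362), with 3 other probe sets not called. Srf, the transcription factor gene, fell by 0.53 on the log2 scale (SE 0.17, limma adjusted p = 0.0377), with its other probe set at -0.37 and not called. Elk3, an Ets factor that binds DNA together with SRF, rose by 0.94 (SE 0.29, limma adjusted p = 0.0331), while its other tested probe set differed by -0.53 without a call. The other 5 of the 7 tested genes of SRF and its cofactors were not called. With equal medians 0 rose and 4 fell, against the same 3.22% and 39.4% of all tested probe sets. Without 1 array the calls of Myl12a, Ppp1r12a, Srf and Elk3 were lost in 6, 8, 8 and 6 of 11 fits. The calls of Srf, Elk3 and Ppp1r12a were lost after quantile normalization (limma adjusted p = 0.0780, 0.132 and 0.0522).

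**Figure D4:**
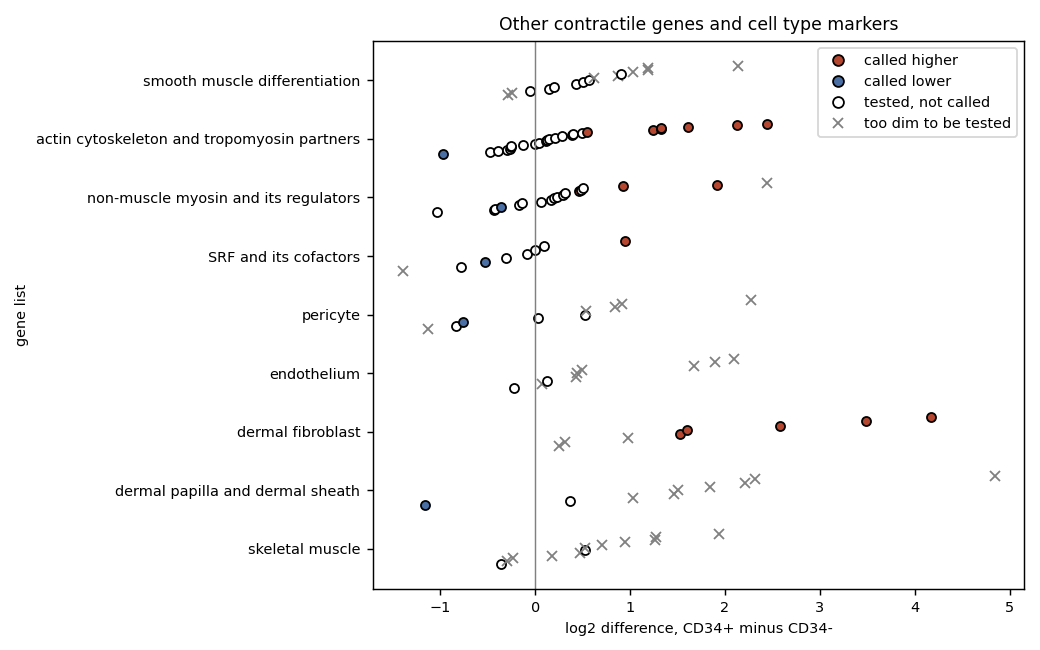
Log2 difference, CD34+ minus CD34-, of other contractile genes and of cell type markers, 1 symbol per gene by its brightest probe set, in rows by list. Red circles were called higher, blue circles lower, open circles were not called and crosses were too dim to be tested. The 5 tested dermal fibroblast genes are all red, while 7 of 15 smooth muscle differentiation genes are open circles and the rest crosses.

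Markers of other cells that make these proteins did not all move alike. Signals are given here as the sum of linear signal over a list. For pericytes it was 3100 to 4630 on CD34+ arrays and 3360 to 5110 on CD34- arrays, with 4 of 9 genes passing the filter. The brightest of them, Ndufa4l2 and Notch3, weigh most in this sum and differed by -0.77 (limma adjusted p = 0.00178) and 0.03. Rgs5 (0.53) and Anpep (-0.84), which also passed and are named after their values were seen, were not called. Kcnj8 and Higd1b stayed under the 40th percentile of each array. For endothelium the sum was 317 to 867 on CD34+ arrays and 302 to 494 on CD34- arrays, with 2 of 9 genes passing, Egfl7 and Kdr, which were not called, and with Cdh5, Tek and Tie1 under the 40th percentile on all 11 arrays. For skeletal muscle it was 468 to 1110 on CD34+ arrays and 371 to 570 on CD34- arrays, and the 2 of 12 genes that passed, Mylpf and Atp2a1, were not called, while Myh1, Myl1 and Actn3 were under it on all 11 arrays.

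Fibroblast genes were higher in CD34+ cells without overlap of the sums, which were 4250 to 13600 on CD34+ arrays and 812 to 1370 on CD34- arrays. All 5 of 8 genes that passed the filter were called, the brightest being the collagen genes Col1a2 (3.49, SE 0.26, limma adjusted p = 5.52e-06) and Col6a1 (2.58, SE 0.34). The others, Col3a1, Dcn and Pdgfra, are named after their values were seen. The fibroblast genes Lum, Dpt and Col1a1 did not pass the filter. By array the sum was 13600, 4970, 4250, 7710 and 6850 on CD34+ arrays 1 to 5, highest where Synpo2 and Myl9 were highest, and not on CD34+ array 2, where Acta2 was highest. Among CD34+ arrays, array 1 also held the highest sums of the keratinocyte, bulge, melanocyte and skeletal muscle lists. It held those of the actin cytoskeleton, non-muscle myosin, and dermal papilla and sheath lists as well. Sums of the smooth muscle differentiation, SRF, pericyte, endothelium, Schwann cell and T cell lists were highest on other CD34+ arrays. The part of fibroblasts in the contractile differences was not tested. For dermal papilla and sheath the sum was 882 to 1250 on CD34+ arrays and 752 to 918 on CD34- arrays, and of its brightest genes Rspo3 fell by 1.16 on the log2 scale (SE 0.18, limma adjusted p = 0.0008) and Alpl was not called (0.36). Of the 7 that did not pass the filter, Crabp1 lay at 6.90 to 9.19 on CD34+ arrays, while the CD34- arrays spanned 0.98 to 4.77. This was at least 3.94-fold higher in CD34+ cells against the 40th percentiles. Col11a1 likewise lay higher without overlap, by 2.21, but was dim on 3 of 5 CD34+ arrays and all 6 CD34- arrays. Both were named after their values were seen. The part of dermal papilla or sheath cells in the contractile differences was not tested. Sox2, Corin, Prom1 and Itga5 of that list stayed under the 40th percentile of each array.

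Of 8 keratinocyte genes, all tested, 1 was called higher, Dsp (0.50), and 2 lower, Trp63 (-0.38) and Itga6 (-0.53), named after their values were seen. Krt5, whose promoter drives the transgene, averaged 14.94 ± 0.27 (SD, n = 5) in CD34+ cells and 15.02 ± 0.17 (SD, n = 6) in CD34- cells, and Perp differed by 0.40 without a call. Of 9 bulge genes, all tested, 8 were called higher, with a median difference of 2.60. Of the brightest, Nfatc1 rose by 1.02 (SE 0.21) and Krt15 differed by 0.47 without a call (limma adjusted p = 0.0531). Summed signal of 6 melanocyte genes was 7450 to 13700 on CD34+ arrays and 4660 to 25500 on CD34- arrays. Mitf was higher by 1.42 (SE 0.33, limma adjusted p = 0.00888), and the other 5 were not called. Dct differed by -0.50. Tyrp1, Pmel and Tyr, named after their values were seen, differed by -0.87, -0.80 and -0.42, and Mlana by 0.25. The median difference of the 6 genes was -0.46. Of 4 Schwann cell genes the sum was 3380 to 7710 on CD34+ arrays and 8210 to 10900 on CD34- arrays. Erbb3 and Mbp, the brightest, weigh most in this sum and differed by -0.61 and -0.77 without a call. Sox10 differed by 0.06 without a call, and Cdh19, which did not pass the filter, by 0.26. Both are named after their values were seen. Of 5 T cell genes the sum was 315 to 2030 on CD34+ arrays and 2510 to 4920 on CD34- arrays, with Ptprc (-1.81, SE 0.40) and Cd3g (-2.69, SE 0.78) lower in CD34+ cells. The Cd3g call was lost in 4 of 11 fits without 1 array (highest limma adjusted p = 0.0542).

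**Figure D5:**
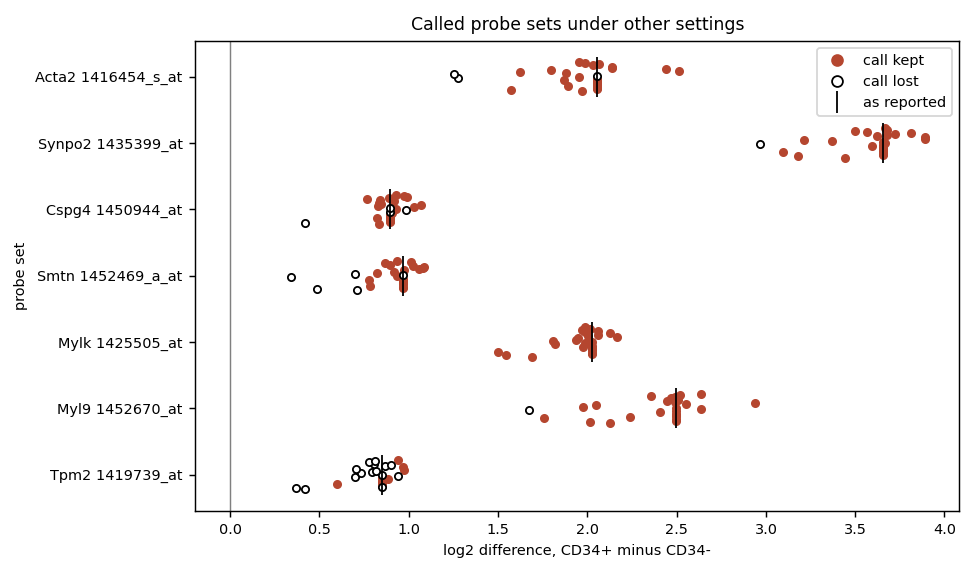
Log2 difference, CD34+ minus CD34-, of the 7 called contractile probe sets under each other setting, 1 circle per setting, with the reported value as a vertical bar. Open circles lost the call at that setting's threshold. Every circle lies right of 0, Mylk 1425505_at has no open circle, and Tpm2 1419739_at has the most.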

How the data were processed

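Values were deposited as log2 signal, 1 for each array and probe set. The submitters' processing notes name MAS5, without its version or settings. The trimmed mean of linear signal (2% off each end) was 500.002 to 500.004 on every array, so values were used without further normalization. Of 45101 probe sets, 34945 had 1 gene symbol, 932 several and 9160 none besides 64 controls. The dimmest 40% by mean were left out (mean log2 signal under 6.06), and 20967 were fitted with limma 3.58.1 in R 4.3.3 (intensity trend, Benjamini-Hochberg adjustment over all of them). Differences are CD34+ minus CD34-. In lists a gene is represented by its brightest probe set. The number of arrays limits the precision (median SE of a difference 0.22). The fit was tested on simulated data.

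The members and lists were chosen with earlier results of these data known. Named besides the members are Cd34, Krt5, 5 defining smooth muscle genes, up to 3 called genes per direction of each contractile list by smallest p, and the 2 brightest genes of each marker list. Alternatives covered scaling, filter, offset, dim values, probe set choice, moderation, array weights, an exact permutation test, threshold, the actin ratio, the replicate block and left-out arrays.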

Additional observations from a re-analysis of the deposited data

Results flagged for a closer look

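In 48 groups, 24 probe sets in each fraction, the highest or lowest array was set against the others by Dixon's test, which chance passes for about 1 in 20 groups. It picked out 2. Tpm1 1423721_at was at 10.28 on CD34+ array 1, far above the other CD34+ arrays at 8.44 to 8.89. Mylk 1425504_at was at 2.44 on CD34- array 5, far below the other CD34- arrays at 5.19 to 6.22, and is a dim probe set that was not tested between the fractions.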

How the results depend on the processing

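The count of contractile probe sets called higher was 7 of 14 tested as reported. Of the same 14 it was 4 under equal medians, 1 in the actin ratio fit and 3 at an adjusted p under 0.01. At that threshold 4.1% of all tested probe sets were called higher. Leaving out the dimmest 60% kept only 8 contractile probe sets in the test. Of these 8, 3 were called, against 10.2% of all tested, and none lost its call. The number tested also differed with the dimmest 20% left out (10 of 20 called), no filter (9 of 24) and 1 probe set per gene (6 of 8). Of all tested at these settings, 8.57%, 6.55% and 12.4% were called higher. The count was 5 to 8 under the other alternatives and 6 to 9 without 1 array. No contractile probe set was called lower under any alternative. Equal medians shift the median of all tested probe sets to -0.46, against 0.02, and 3.22% are then called higher and 39.4% lower, against 11.0% and 9.77%; after quantile normalization these shares were 6.61% and 10.5%. No called probe set changed direction. The actin ratio ended the calls of Acta2 (1.28, limma adjusted p = 0.562), Synpo2 1435399_at (2.97, 0.0586) and Myl9 (1.68, 0.353), as well as those of Cspg4, Smtn and Tpm2, and the cause was not tested. Of the probe sets not called, Mylk 1425506_at was called higher in 7 of 27 alternatives, and Tpm2 1425028_a_at in 2 of 26. Others changed direction without a call. Tpm1 1423721_at turned to -0.24 with equal medians and -0.36 with the actin ratio (-0.0703 to 0.39 without 1 array). Tpm1 1456623_at turned to 0.0348 with an offset, 0.29 with dim values raised, 0.0705 with the actin ratio and 0.36 without CD34+ arrays 1 and 2 (-0.34 to 0.47 without 1 array). Tpm2 1419738_a_at turned to -0.22 with the actin ratio. Tpm2 1449577_x_at turned to -0.0680 after quantile normalization, -0.26 with equal medians, -0.0898 with the actin ratio and -0.17 without CD34+ arrays 1 and 2 (-0.003 to 0.48 without 1 array). The causes were not tested.

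With the replicate number as a block, 6 of the 14 probe sets were called higher, against 7.79% of all tested. Of the 7 called as reported, only Tpm2 1419739_at lost its call (limma adjusted p = 0.0635). Deviations of same-numbered arrays correlated at 0.02 to 0.18, and 1 of 5 CD34+ arrays correlated best with its own number. The labels do not state whether the numbers pair the samples, and so few correlations cannot settle it. Dim probe sets, 10 of 24, limit what can be said of Tagln and Cnn1.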
